A study of Mus musculus with 7 samples.

Results

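Goblet cells are the mucus-secreting cells of the intestine, and 10 genes of their mucus were followed here in sorted Paneth cells, granule-filled cells of the crypt bottom that release antimicrobial proteins. The genes were Muc2, Fcgbp, Clca1, Zg16, Tff3, Retnlb, Muc13, Muc1, Galnt12 and Bcas1, found by symbol among the 52550 genes of the count files. All 10 of 10 passed the low-count filter that left 17449 genes for testing. Clca1 was selected on its measured CPM, which was higher after DSS, so that difference is a description with no test. The other 9 are goblet and mucus genes listed with it.

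The 4 DSS libraries came from Lgr5-EGFP-IRES-CreERT2 mice of strain C57BL/6J given 3% dextran sulfate sodium (DSS), which damages the gut lining, in the drinking water over 7 days, with tissue taken 3 days after it was withdrawn. The 3 water libraries came from mice with the same allele and strain that drank normal water. DSS 1 was from a mouse of 12 weeks and DSS 2 to 4 from mice of 10 weeks. Water 1 and 2 were from mice of 12 weeks and water 3 from a mouse of 10 weeks. Cells were sorted from small-intestinal crypts by CD24 and side scatter after exclusion of cells with TER119, CD31 or CD45, so any goblet cell in that gate would be included. Whether every library is its own animal is not stated, and the p-values reflect variation among the libraries, which may be technical. RNA of the DSS and water mice was isolated on different days, so day and treatment cannot be told apart.

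Mucus is built on MUC2, a gel-forming mucin that is assembled into disulfide-linked polymers, coated with O-linked sugars in the Golgi and packed into goblet granules. FCGBP, CLCA1, ZG16 and TFF3 are secreted with it, and RETNLB is a secreted factor that goblet cells induce on microbial or type 2 cytokine signals. MUC13 and MUC1 are membrane-bound mucins of the apical surface, and GALNT12 is one of the enzymes that attach the first sugar of the O-glycans. Goblet and Paneth cells share a secretory progenitor.

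Total counts ran from 23175708 to 32451653 per library. The RNA of all sorted cells was pooled in each library, so fewer cells of a type and less RNA per cell cannot be told apart. Values are CPM, counts scaled to the library total, and adjusted between libraries by TMM, a trimmed mean of log ratios. Log2 changes are DSS over water with the standard error (SE) of the edgeR quasi-likelihood fit, and adjusted p-values are Benjamini-Hochberg over all 17449 genes. The sum of 9 Paneth markers was 133600 to 232200 CPM in DSS and 271300 to 297400 CPM in water. Of the 9, 0 passed the edgeR test, as for 0% of all genes tested. In 4 (Lyz1, Itln1, Defa24 and Defa30) every DSS library lay below water, while the other 5 overlapped. Of all genes tested, 7.51% had every DSS library below water.

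Measured per kilobase of exon, which allows levels to be compared between genes, Tff3 was highest in both groups. Its level was 1608 CPM per kb in DSS (lowest 1178, highest 2494) and 1521 in water (lowest 1400, highest 1651). Muc13 came next with 457 and 557 CPM per kb, followed by Muc2 with 392 and 457 and Fcgbp with 181 and 145, in DSS and water in each case. The ranges of Muc13 and Muc2 overlapped in both groups, and those of Muc2 and Fcgbp overlapped in DSS and not in water. Clca1 had rank 5 of the 10 in DSS, at 115 CPM per kb, and rank 7 in water, at 25.9. In DSS the ranges of each neighbouring pair from Muc13 down to Galnt12 overlapped, so the order there is not fixed beyond the spread. Bcas1 had rank 9 in both groups, at 8.88 CPM per kb in DSS and 8.28 in water, and Muc1 was last at 0.152 and 0.148.

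**Figure D1:**
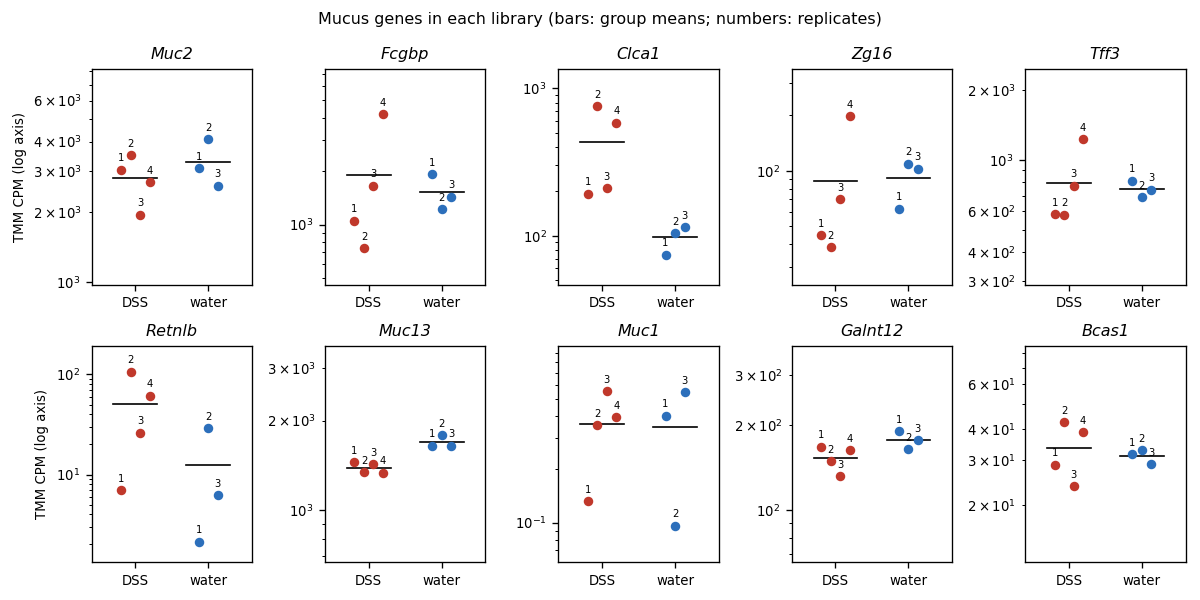
TMM CPM on a log axis of each gene in the 4 DSS and 3 water libraries, with points numbered by replicate and bars at group means. Clca1 ran from 193 to 755 CPM in DSS, all above the water libraries (74.4 to 114), Muc13 lay below water in every DSS library, and the other 8 genes overlapped.

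CLCA1 is a secreted metalloprotease that cleaves the MUC2 network. The gene (ENSMUSG00000028255.6) lies on the minus strand at chr3:145003817-145032776 of mm10 and had 3777 bases of exon in 15 blocks. Clca1 was 193, 755, 210 and 585 CPM in DSS 1 to 4, against 74.4, 104.5 and 114 CPM in water 1 to 3. DSS 2 and DSS 4 were the high libraries, DSS 1 and DSS 3 lay nearer to water, and the groups did not overlap. The mean was 436 ± 279 CPM in DSS and 97.7 ± 20.7 CPM in water (SD, n = 4 and 3), a ratio of 4.46 and a log2 change of 2.16 ± 0.49 (SE). This gap is what Clca1 was chosen for. Of all genes tested, 7.4% had every DSS library above every water library. The lowest estimate of its log2 change over 17 alternative analyses was 1.67 and the highest 2.58.

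Clca1 sits in a row of related genes on chromosome 3, and the groups overlapped in the 5 other CLCA genes tested. Of all genes tested, 7.4% had every DSS library above water and 7.51% below, so 0 of 5 is near the background. Clca3b, the CLCA gene with the most CPM here, was 1148, 1031, 790 and 1112 CPM in DSS 1 to 4, against 1126, 973 and 885 CPM in water. These ranges overlapped, and its log2 change was 0.04 ± 0.14 (edgeR adjusted p = 0.932). Clca4a was 7.60 ± 2.80 CPM in DSS and 14.7 ± 3.35 in water (SD, n = 4 and 3), a log2 change of -0.97 ± 0.27 (edgeR adjusted p = 0.170). Clca4b was at -0.68 ± 0.29 (adjusted p = 0.307), Clca3a1 at 0.13 ± 0.10 and Clca3a2 at -0.01 ± 0.14, and none passed the threshold. Clca3b and Clca3a2 were chosen after their values were seen. Whether the change of Clca1 differs from theirs was not tested.

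Reads of Clca1 were checked for other possible sources. None of the 3770 windows of 50 bases in Clca1 transcripts occurred in a transcript of another gene, and the longest identical run between the coding sequences of Clca1 and Clca3b was 19 bases. The 2 lines below show their most similar ungapped coding stretch of 120 bases, in GENCODE release 21 transcripts of GRCm38, coding bases 705 to 824 of Clca1 and 702 to 821 of Clca3b, with the 23 differing bases in capitals.
Clca1: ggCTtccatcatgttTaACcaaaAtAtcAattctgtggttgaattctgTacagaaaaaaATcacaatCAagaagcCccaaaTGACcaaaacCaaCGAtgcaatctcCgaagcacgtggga
Clca3b: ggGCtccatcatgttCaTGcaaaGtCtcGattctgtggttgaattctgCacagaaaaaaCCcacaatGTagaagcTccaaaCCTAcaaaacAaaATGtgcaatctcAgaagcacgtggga

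Retnlb (ENSMUSG00000022650.6, chr16:48816856-48818891, plus strand) encodes RELM-beta, a small cysteine-rich protein released into the gut lumen. It was 7.01, 107, 26.2 and 61.4 CPM in DSS 1 to 4, against 2.14, 29.2 and 6.25 CPM in water 1 to 3. DSS 2 and DSS 4 were again the highest, but water 2 lay above DSS 1 and DSS 3, so the groups overlapped. The log2 change was 2.03 ± 0.96 (SE), and the edgeR adjusted p was 0.349. Its size was close to that of Clca1, but its SE was wider, and Retnlb varied 15.3-fold among DSS libraries and 13.6-fold among water libraries. Without water 2 the log2 change was 3.58, and without DSS 2 it was 1.36. Its relatives Retnla and Retnlg had 0 counts in all 7 libraries.

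Muc2 (ENSMUSG00000025515.15, chr7:141690340-141754693, plus strand, 7127 bases of exon) did not follow Clca1 and Retnlb. It was 3030, 3508, 1946 and 2680 CPM in DSS 1 to 4, against 3082, 4106 and 2591 CPM in water 1 to 3. DSS 3 was the lowest library, water 2 the highest, and the other 5 lay between them. Its log2 change was -0.22 ± 0.22 (SE, edgeR adjusted p = 0.669).

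Fcgbp, Zg16 and Tff3 had a pattern of their own, in which DSS 4 stood highest and DSS 1 and DSS 2 lowest. FCGBP is a large mucus protein with von Willebrand D domains that binds MUC2. Fcgbp (ENSMUSG00000047730.17, chr7:28071236-28120862, plus strand) was 1053, 734.5, 1656 and 4175 CPM in DSS 1 to 4, against 1914, 1225 and 1435 CPM in water 1 to 3. DSS 4 lay above all water libraries and DSS 1 and DSS 2 below them, so the 2 groups overlapped with DSS on both sides. The log2 change was 0.32 ± 0.52 (edgeR adjusted p = 0.816), and without DSS 4 it was -0.41.

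ZG16 is a lectin-like protein of mucus that binds bacterial cell walls. Zg16 (ENSMUSG00000049350.6, chr7:127050156-127087328, minus strand) was 45.0, 38.7, 70.5 and 198 CPM in DSS 1 to 4, against 62.5, 109 and 103 CPM in water. Again DSS 4 was above every water library and DSS 1 and DSS 2 below, and the log2 change was -0.05 ± 0.52 (edgeR adjusted p = 0.975). TFF3 is a trefoil peptide that promotes epithelial repair. Tff3 (ENSMUSG00000024029.4, chr17:31125306-31129646, minus strand) was 585, 580.5, 775 and 1230 CPM in DSS 1 to 4, against 814, 690 and 745 CPM in water, which puts its DSS libraries in the same places. Its log2 change was 0.08 ± 0.25 (edgeR adjusted p = 0.913). Without DSS 4 the estimates were -0.83 for Zg16 and -0.21 for Tff3.

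The neighbour of Fcgbp, 9530053A07Rik, shares stretches of identical sequence with it, so reads from those stretches cannot be assigned with certainty. Of the 50-base windows of Fcgbp, 6.42% also occurred in transcripts of another gene, nearly all in 9530053A07Rik. Counts of 9530053A07Rik were 4.39% to 5.37% of those of Fcgbp in DSS libraries and 4.54% to 5.11% in water libraries, a nearly constant share across libraries. The longest run shared by the coding sequences was 206 bases. The line below gives 120 bases shared by both without a difference, at coding bases 5714 to 5833 of Fcgbp and 5711 to 5830 of 9530053A07Rik (GENCODE release 21, GRCm38).
Fcgbp and 9530053A07Rik: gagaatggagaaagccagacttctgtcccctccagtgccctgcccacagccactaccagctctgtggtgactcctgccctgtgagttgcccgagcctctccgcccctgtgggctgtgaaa

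Across the 7 libraries the secreted mucus genes did not share 1 order of libraries. The difference between 2 genes was measured as the root mean square gap between their log2 deviations from their own means. The deviations were not scaled, so the gap reflects how much genes vary as well as their order of libraries, and genes that vary little lie close. That gap was 0.40 between Fcgbp and Tff3, 0.46 between Fcgbp and Zg16 and 0.50 between Tff3 and Zg16, but 0.91 between Muc2 and Fcgbp and 1.36 between Clca1 and Fcgbp. The members nearest to Clca1 were Bcas1, at 1.04, and Retnlb, at 1.08, which like it were highest in DSS 2. Muc13 and Galnt12 were the closest pair, at 0.15. In DSS the SD of log2 CPM was 1.71 for Retnlb, 1.08 for Fcgbp, 1.06 for Zg16, 1.01 for Clca1, 0.51 for Tff3 and 0.36 for Muc2, against a median of 0.11 over the 10238 genes whose average log2 CPM was 3 or more. In water the same SD was 1.89 for Retnlb and 0.33 for Fcgbp, 0.44 for Zg16, 0.33 for Clca1, 0.12 for Tff3 and 0.34 for Muc2, against a median of 0.092.

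**Figure D2:**
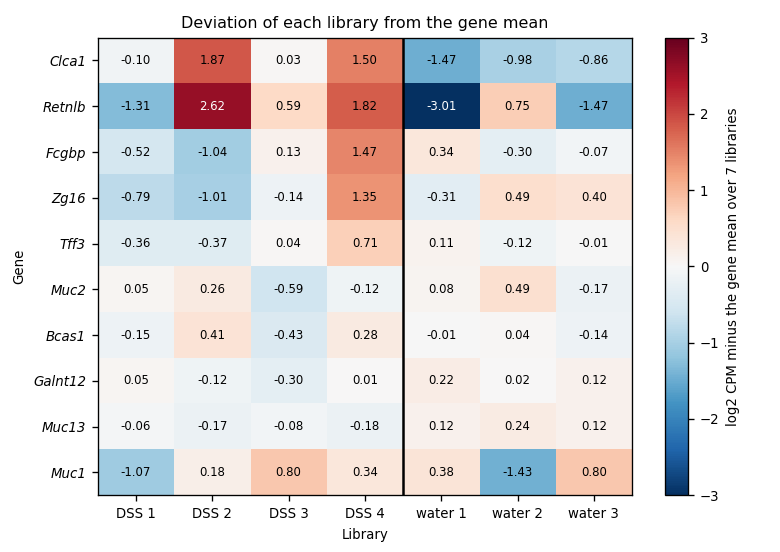
Log2 CPM of each gene (rows) in each library (columns) minus the gene's mean over the 7 libraries. Clca1 and Retnlb were highest in DSS 2 (1.87 and 2.62) and next highest in DSS 4, whereas Fcgbp, Zg16 and Tff3 were highest in DSS 4 alone (1.47, 1.35 and 0.71).

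Each gene was also set against Muc2 of the same library, so that a factor common to both cancels. The log2 ratio of Clca1 to Muc2 was -3.97, -2.22, -3.21 and -2.19 in DSS 1 to 4, against -5.37, -5.30 and -4.51 in water 1 to 3. All 4 DSS ratios lay above all 3 water ratios, as the choice of Clca1 leads one to see. Retnlb to Muc2 was -8.76, -5.04, -6.21 and -5.45 in DSS, against -10.5, -7.13 and -8.70 in water. Only DSS 1 fell within the water range. Fcgbp to Muc2 was -1.52, -2.26, -0.23 and 0.64 in DSS, against -0.69, -1.75 and -0.85 in water. Its DSS ratios lay on both sides of water, and in DSS 4 alone did Fcgbp have more CPM than Muc2.

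**Figure D3:**
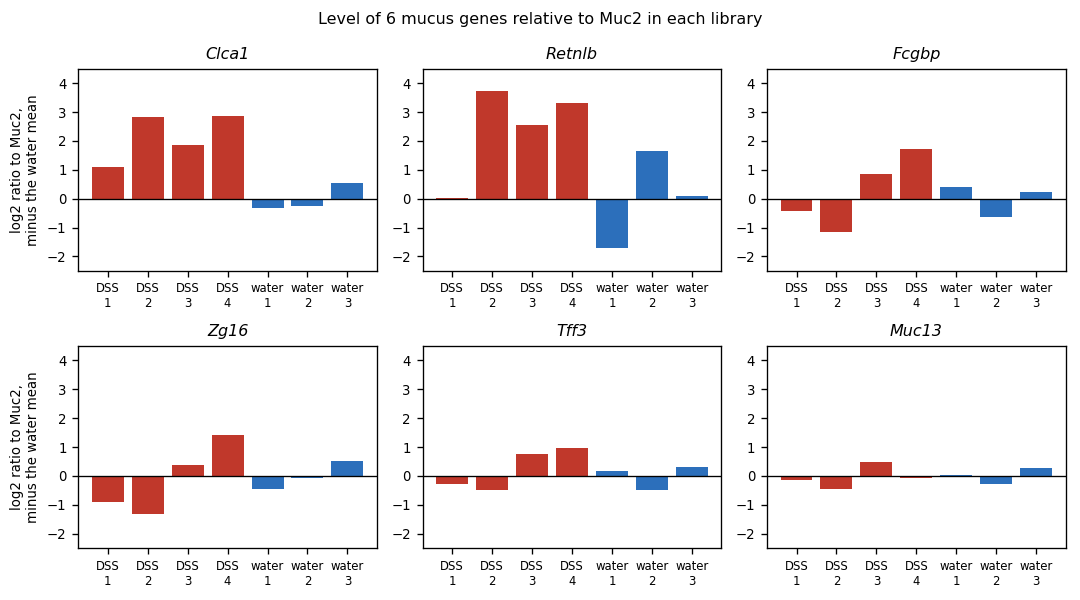
Log2 ratio of 6 genes to Muc2 in each library, minus the mean ratio of the 3 water libraries. Bars of Clca1 were at 1.09 to 2.86 in DSS and -0.31 to 0.55 in water, whereas those of Fcgbp, Zg16 and Tff3 were below 0 in DSS 1 and DSS 2 and above 0 in DSS 3 and DSS 4.

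The membrane mucin Muc13 (ENSMUSG00000022824.12, chr16:33794037-33819934, plus strand) had the least spread of the 10. It was 1449, 1343, 1429 and 1336 CPM in DSS 1 to 4, against 1647, 1784 and 1647 CPM in water 1 to 3. Every DSS library lay below every water library, while 7.51% of all genes tested had this order. Its mean was 1389 ± 58.4 CPM in DSS and 1693 ± 79.2 CPM in water (SD, n = 4 and 3). The log2 change of -0.29 ± 0.09 (SE) did not pass in edgeR (adjusted p = 0.193) and passed in DESeq2 (adjusted p = 0.00180). With library totals in place of TMM it was -0.05, and the median of all genes then stood at 0.23, against -0.0015 with TMM. The antisense gene Gm15657 overlaps Muc13 and shared 5.2% of its 50-base windows. At 8.78 to 10.7 CPM in DSS and 9.59 to 11.5 CPM in water it was low beside Muc13, and the counting used no strand.

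Muc1 (ENSMUSG00000042784.9, chr3:89229057-89233381, plus strand), the other membrane mucin, was barely detected. It had 3, 12, 16 and 13 counts in DSS 1 to 4, against 9, 2 and 13 counts in water 1 to 3. A difference of Muc1 was not detectable at this depth, with a log2 change of 0.05 ± 0.56 (edgeR adjusted p = 0.980).

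Galnt12 (ENSMUSG00000039774.12, chr4:47091909-47123070, plus strand) was 168, 149, 132 and 163 CPM in DSS 1 to 4, against 189.5, 164 and 177 CPM in water 1 to 3. DSS 1 lay within the water range and the other 3 DSS libraries below it. Its log2 change was -0.21 ± 0.09 (edgeR adjusted p = 0.322), and 0.02 with library totals. Bcas1 (ENSMUSG00000013523.13, chr2:170346991-170427845, minus strand) was 28.8, 42.6, 23.7 and 38.9 CPM in DSS 1 to 4, against 31.7, 33.0 and 29.0 CPM in water. DSS 2 and DSS 4, the libraries with the most Clca1, lay above water, and DSS 1 and DSS 3 lay below. Its log2 change was 0.10 ± 0.18 (edgeR adjusted p = 0.832). Bcas1 shared 8.98% of its windows with the antisense gene Bcas1os1, which was at most 0.273 CPM in DSS and 0.357 CPM in water.

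Of the 9 genes other than Clca1, 0 were higher and 0 lower in DSS at an edgeR adjusted p under 0.05, as for 0% of all genes tested in each direction. At an unadjusted p under 0.05 there was 1, Muc13, while 8.36% of all genes were higher and 7.35% lower at that level. DESeq2 called Muc13 lower and none of the other 8, of which Muc1 got no adjusted p and could not be called. It called 2.61% higher and 2.23% lower of the genes to which it gave an adjusted p, and limma-voom called 0. Of the 9, 5 had estimates above 0 and 4 below, against 49.7% and 50.3% of all genes, with a median log2 change of 0.05. The sum of all 10 genes was 6559, 7258, 6268 and 10470 CPM in DSS 1 to 4, against 7818, 8246 and 6848 CPM in water 1 to 3, so the total overlapped and DSS 4 was highest. Muc2 held 25.6% of that sum in DSS 4 and 31.0% to 48.3% in the other DSS libraries, against 37.8% to 49.8% in water. Clca1 held 2.94% to 10.4% in DSS and 0.952% to 1.67% in water.

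**Figure D4:**
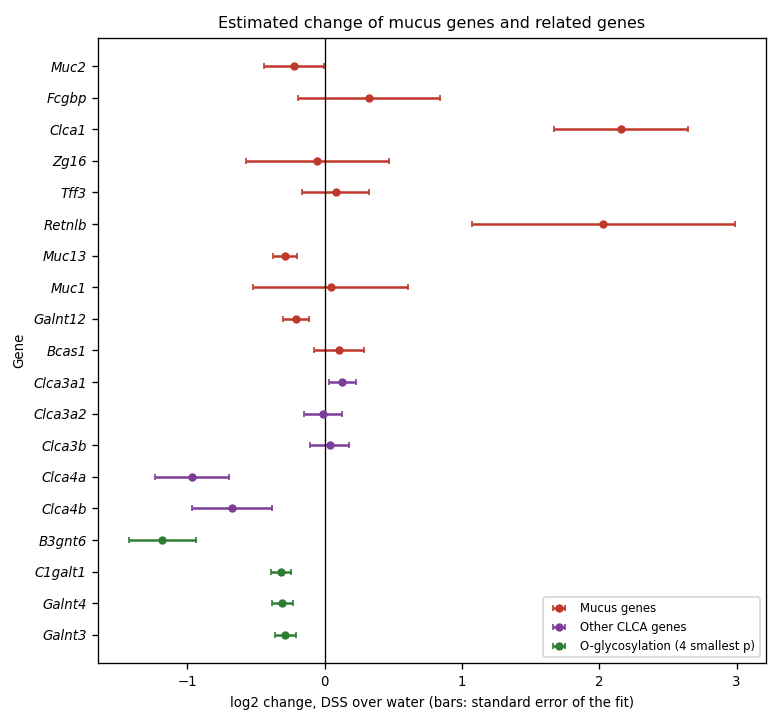
Log2 change (DSS over water, with the SE of the fit) of the 10 mucus genes, the 5 other CLCA genes tested and the 4 O-glycosylation genes with the smallest p. Clca1 stood at 2.16 and Retnlb at 2.03 with a wider bar, and the other 8 mucus genes were within 0.35 of 0.

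Promoters could be read for 4 of the 10 genes, Muc2, Fcgbp, Muc13 and Muc1, from RefSeq sequences of GRCm38.p6. The 250 bases before the start are shown for the most abundant ones, whose libraries varied in 3 different ways (Muc2, Fcgbp and Muc13), with the E-box CAGNTG in capitals. This is the core bound by basic helix-loop-helix factors such as ATOH1, the factor required for secretory cells. The Muc2 window is chr7:141690090-141690339, that of Fcgbp chr7:28070986-28071235 and that of Muc13, at the first of its 2 starts, chr16:33793787-33794036, all on the plus strand.
Muc2: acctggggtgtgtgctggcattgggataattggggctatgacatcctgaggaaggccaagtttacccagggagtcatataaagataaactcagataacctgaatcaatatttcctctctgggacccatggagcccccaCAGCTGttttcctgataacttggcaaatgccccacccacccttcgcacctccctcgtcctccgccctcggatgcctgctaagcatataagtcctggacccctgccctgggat
Fcgbp: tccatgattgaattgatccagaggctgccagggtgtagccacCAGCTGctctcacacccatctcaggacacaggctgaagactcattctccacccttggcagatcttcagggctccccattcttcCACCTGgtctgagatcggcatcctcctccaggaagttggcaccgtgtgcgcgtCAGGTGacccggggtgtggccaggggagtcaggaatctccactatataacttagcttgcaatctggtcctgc
Muc13: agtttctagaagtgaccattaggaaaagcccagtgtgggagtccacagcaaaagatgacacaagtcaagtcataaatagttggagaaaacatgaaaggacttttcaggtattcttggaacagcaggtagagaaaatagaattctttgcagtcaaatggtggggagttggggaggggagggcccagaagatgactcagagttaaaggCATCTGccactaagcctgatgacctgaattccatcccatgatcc
Fcgbp and Muc1 held 3 matches each and Muc2 and Muc13 held 1, and 44.8% of 32851 promoters of this length held at least 1, counting both strands. A forkhead core TGTTTNC was in the Muc2 and Muc13 windows and in 17.8% of all promoters. In the Muc2 window it overlaps the E-box. The core ACGTG, used by unfolded protein response and CREB3L factors, and the STAT6 site, TTC and GAA with 4 bases between them, were in none of the 4 windows, and in 16.6% and 5.85% of all promoters. A match describes the sequence and is no evidence of binding.

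Regulators of goblet cells were read next. All 9 goblet transcription factors listed were tested, and 0 passed in either direction, as for 0% of all genes tested. Of the 9, 0 had groups without overlap, against 7.4% of all genes with every DSS library above water and 7.51% below. Their median log2 change was 0.01, beside -0.0015 for all genes. Spdef, which drives goblet maturation and was chosen here after its values were seen, was 99.2, 108, 89.6 and 116 CPM in DSS 1 to 4, against 99.1, 113 and 96.4 CPM in water. Among the 4 with the smallest p, Creb3l4 was at -0.17 ± 0.08, Klf4 at 0.25 ± 0.12, Foxa2 at -0.19 ± 0.14 and Gfi1 at 0.20 ± 0.21.

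Other goblet granule genes also overlapped in most cases. Of 15 listed, 14 were tested and 0 passed, as for 0% of all genes tested. Every DSS library lay below every water library in 2, or 14.3%, against 7.51% of all genes. Agr2, a disulfide isomerase needed to make MUC2, was 642, 709, 520 and 942 CPM in DSS 1 to 4, against 965, 1085 and 946 CPM in water. DSS 4 reached almost to water, and the log2 change was -0.51 ± 0.18 (edgeR adjusted p = 0.230). The other of the 2 was Hepacam2 at -0.20 ± 0.08 (adjusted p = 0.279). Fer1l6 and Capn9 were at 0.36 ± 0.20 and 0.30 ± 0.18. The list median was 0.01.

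Most enzymes that build mucin O-glycans had estimates a little below 0 with TMM, and most lay above 0 with library totals. Of 37 listed, 28 were tested and 0 passed, as for 0% of all genes tested. In every DSS library 8, or 28.6%, lay below water and 1, or 3.57%, above, against 7.51% and 7.4% of all genes. The list median was -0.11 with TMM and 0.12 with library totals, where all genes stood at 0.23. B3gnt6, the core 3 synthase, was 2.07, 2.00, 1.68 and 2.03 CPM in DSS 1 to 4, against 2.90, 6.25 and 4.15 CPM in water, a log2 change of -1.18 ± 0.24 (edgeR adjusted p = 0.138). C1galt1, the core 1 synthase, was 190 ± 12.9 CPM in DSS and 236 ± 9.37 CPM in water (SD, n = 4 and 3), at -0.32 ± 0.07 (adjusted p = 0.138). Galnt4 was at -0.31 ± 0.07 and Galnt3 at -0.29 ± 0.08, with adjusted p of 0.142 and 0.169. Of 10 tested relatives of Galnt12, 9 had estimates below 0 with TMM and 5 with library totals. The member above water was St3gal4, a sialyltransferase chosen after its value was seen, at 48.2 ± 13.6 CPM in DSS and 29.7 ± 4.12 CPM in water and a log2 change of 0.70 ± 0.20 (adjusted p = 0.181).

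Among other mucins, 5 of 13 listed were tested and 0 passed, as for 0% of all genes tested, with a median of -0.03. Of the 5, 0 had groups without overlap, against 7.4% of all genes with every DSS library above water and 7.51% below. Muc6, a gland mucin, was at 1.52 ± 0.52 (edgeR adjusted p = 0.227), and Muc3, a membrane mucin of enterocytes, at 0.66 ± 0.25 (adjusted p = 0.261). Muc3 was 47.7, 64.7, 69.3 and 29.5 CPM in DSS 1 to 4, against 31.8, 32.8 and 35.6 CPM in water, so DSS 4 lay below water and the other 3 above. The separate entry Muc3a, named here after its values were seen, had more CPM than Muc3. It was 142 ± 10.5 CPM in DSS and 145 ± 25.0 CPM in water (SD, n = 4 and 3), at -0.03 ± 0.11 (edgeR adjusted p = 0.941). Muc20 was at -0.18 ± 0.19 and Muc4 at -0.04 ± 0.13. Of 8 genes of the IL-4 and IL-13 receptor pathway, which induces CLCA1 and RELM-beta in mucosa, 6 were tested. Of these, 0 passed, as for 0% of all genes tested, with a median of 0.05. Every DSS library lay above water in 1 of the 6 and below in 1, or 16.7% each. The shares of all genes tested were 7.4% above and 7.51% below. The receptor chain Il4ra was 30.9, 35.7, 31.3 and 30.1 CPM in DSS 1 to 4, against 28.1, 29.6 and 24.8 CPM in water, at 0.22 ± 0.09 (adjusted p = 0.268). These DSS libraries were all above water by a small margin. The kinase Jak1 was at -0.26 ± 0.07 (adjusted p = 0.167), below water in every DSS library, Il13ra1 at 0.22 ± 0.13 and Tyk2 at -0.07 ± 0.08, and Il13ra2 had 0 counts.

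Markers of other cells were read beside these values. The 8 goblet markers, 5 of which are mucus genes described here, summed to 7898 to 13080 CPM in DSS and 9973 to 11150 CPM in water. The 8 enterocyte markers summed to 242 to 377 CPM in DSS and 274 to 341 CPM in water. The 8 enteroendocrine markers, led by Chgb, reached 559 to 1318 CPM in DSS and 73.0 to 2755 CPM in water. The 7 tuft markers were 430 to 848 CPM in DSS, high in DSS 2 and DSS 3, and 453 to 499.6 CPM in water. White blood cell markers were 14.6 to 23.4 CPM in DSS and 13.5 to 21.2 CPM in water, with Cd3g and S100a8 at 0 counts. Ptprc was the highest of them, at 7.86 to 16.8 CPM in DSS and 8.1 to 13.5 CPM in water. The colon marker Hoxb13 had 0 counts in all libraries, and Car1, of colon enterocytes, was at 0 in DSS 1 to 3, 1.40 CPM in DSS 4, and 0, 10.9 and 0.503 CPM in water 1 to 3. The libraries with the most Clca1, DSS 2 and DSS 4, were the highest DSS libraries in the goblet marker sum, at 10990 and 13080 CPM. DSS 1 and DSS 3 were at 9042 and 7898 CPM, and this sum includes Clca1 itself. DSS 2 lay within the water range of the sum and DSS 4 above it. In tuft markers and Car1, DSS 2 and DSS 4 were not alike. The part of other cells, and of the lower Paneth marker sum, in the mucus values was not tested.

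The genes whose library pattern came nearest to that of Clca1, by the same root mean square gap over 7 libraries among 9107 named non-member genes with average log2 CPM of 3 or more, were Fos (0.76), Id3 (0.80), Hspa1a (0.84), Scin (0.87) and Cyp4f40 (0.88). The median gap over candidate genes was 1.18, so none was close. Levels were not matched: Hspa1a, for example, was at 5.07 to 17.5 CPM in DSS and 2.81 to 7.93 CPM in water. Fos, a gene induced quickly by cell stress and dissociation, was 40.6, 109, 56.5 and 58.3 CPM in DSS 1 to 4, against 43.3, 28.6 and 34.8 CPM in water. It shares the peak in DSS 2 but overlaps water. Nearest to Muc2 were Sidt1 (0.10), Dexi (0.11), Chac2 (0.12), Lgals12 (0.12) and Tlr5 (0.12), against a median of 0.33. Sidt1 was 74.1, 89.5, 52.4 and 58.6 CPM in DSS 1 to 4, against 69.7, 108 and 60.9 CPM in water, highest in water 2 and lowest in DSS 3 as Muc2 was.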

How the data were processed

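Each deposited file gives raw gene counts made by the authors with featureCounts 1.5.3 on duplicate-marked alignments, per the file headers. Exons were summed by gene of GENCODE mouse release 15, with primary alignments only, an overlap fraction of 0.8 and no strand option. Per the submitters' processing notes, mm10 was the build, and the tools included DESeq2, STAR 2.5.3a and featureCounts 1.5.2. Symbols came from GENCODE release 21, matched for 52403 of 52550 identifiers.

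Groups followed the labelled agent, and replicates were numbered in accession order. In R 4.3.3, edgeR 4.0.16 filtered genes (filterByExpr), scaled by TMM and compared DSS with water by the quasi-likelihood test with no covariate, at an adjusted p of 0.05. DESeq2 1.42.0 and limma 3.58.1 were alternatives. TMM factors were 0.980 to 1.14 in DSS and 0.899 to 0.922 in water. At these depths 3 counts equal 0.0924 to 0.129 CPM in DSS and 0.116 to 0.129 CPM in water. Log2 deviations used a prior of 0.5 counts. The fits were also run on simulated counts that held no effect of isolation day, and no conclusion is drawn from that run. Named genes were the 10 members, up to 4 of each pathway list by smallest p, the highest and absent markers, and the 5 nearest patterns to Clca1 and Muc2. The members and lists were chosen with earlier results of these data known. Shared windows were added after seeing the data.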

Additional observations from a re-analysis of the deposited data

How the results depend on the processing

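Over all genes, 0 were higher and 0 lower in DSS in the edgeR analysis, although 2742 had an unadjusted p under 0.05. With library totals only there were 2107 higher and 28 lower, with DESeq2 347 and 297, without a low-count filter 240 and 201, and among libraries with the number 6 in their alignment names (DSS 4 against water, assumed to vary alike) 3 and 6. Leaving out 1 library gave 0 to 168 higher, and 0 to 135 lower, with 168 and 135 without DSS 1, 9 and 0 without DSS 4, and 0 otherwise. Among the 9 mucus genes other than Clca1, DESeq2 called 1 lower, Muc13, and no other alternative called any. Of 167 values of single mucus genes under 17 alternatives, 150 kept their direction. Both counts include 17 values of Clca1, whose direction its selection leads one to see. Library totals turned Galnt12 to 0.020, Muc2 to 0.0016 and Zg16 to 0.22. Muc2 was 0.068 in 10-week mice only, where Muc1 was -0.34. With age as a covariate Muc1 was -0.50 and Tff3 -0.061, and Zg16 was 1.11 among libraries with the number 6. Leaving out 1 library moved Bcas1 from -0.032 to 0.24, Fcgbp from -0.41 to 0.59, Tff3 from -0.21 to 0.20, Muc1 from -0.37 to 0.52 and Zg16 from -0.83 to 0.20. Retnlb stayed above 0 and Muc13 below 0 in all 17. Clca1 also stayed above 0, but it was picked for its rise in these libraries. The causes were not tested. Muc1 was filtered out in 3 alternatives. No paired analysis was possible because the labels give no replicate numbers shared between the groups.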

Other observations

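A pair of stomach and gland-type products was counted at low level in all 7 libraries. Muc6 was 3.70, 0.648, 2.34 and 2.19 CPM in DSS 1 to 4, against 0.982, 0.673 and 0.629 CPM in water 1 to 3. Tff2, a trefoil peptide of gastric and duodenal glands, was 4.19, 0.265, 0.447 and 2.46 CPM in DSS 1 to 4, against 1.25, 0.673 and 0.839 CPM in water. DSS 1 and DSS 4 were the 2 libraries above water for both genes, and the gastric peptide Tff1 had 0 counts in all DSS libraries and at most 1 count in water.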
